A study of Mus musculus with 24 samples.

Results

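The genes described here are 7 grouped under the removal of nuclei and organelles from lens fiber cells: Dnase2b, Bnip3l, Bnip3, Fundc1, Pink1, Ulk1 and Fyco1. The data are RNA levels, so whether each acts in that removal was not tested. They were taken by Entrez gene identifier from a count table of 24415 genes measured by RNA sequencing in 24 mouse lens libraries, and all 7 were found. Fibers (lens cortex) and epithelia were each sampled in 3 conditions, with 4 libraries a group: LEGSKO mice treated with buthionine sulfoximine (LEGSKO+BSO), LEGSKO mice without treatment, and untreated wild-type (WT) mice. The series calls LEGSKO lenses mildly and LEGSKO+BSO lenses severely deficient in glutathione, and it set conditions against each other within a tissue only. All groups have a C57BL/6 background. LEGSKO is known in the field as a lens-directed loss of Gclc, the catalytic subunit of the enzyme that starts glutathione synthesis, and buthionine sulfoximine inhibits that enzyme. Neither a Cre driver nor a dose, duration, age or sex is stated in the labels. Since they also leave unstated whether each library is a different animal, the p-values below measure only the spread between libraries, which may be technical.

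A lens grows by turning epithelial cells at its equator into long fiber cells, which fill with crystallins and then lose their nuclei, mitochondria and endoplasmic reticulum. This clearance leaves a transparent, organelle-free core. In mice, the acid DNase encoded by Dnase2b digests fiber DNA, and its loss leaves DNA in the fibers and clouds the lens. BNIP3L (also called NIX), BNIP3 and FUNDC1 are mitophagy receptors: they sit in the outer mitochondrial membrane and bind LC3-family proteins on the forming autophagosome. PINK1 is a kinase that builds up on damaged mitochondria and marks them for removal. ULK1 is the kinase that starts autophagosome formation. FYCO1 links autophagosomes to kinesin for transport along microtubules, and mutations of human FYCO1 cause inherited cataract.

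In the RefSeq annotation of GRCm38.p6, all 7 genes lie on the minus strand: Dnase2b on chromosome 3 (146569733 to 146617060), Pink1 on chromosome 4 (138313409 to 138326296), Ulk1 on chromosome 5 (110784489 to 110810120), Bnip3 on chromosome 7 (138890836 to 138909506), Fyco1 on chromosome 9 (123789500 to 123851899), Bnip3l on chromosome 14 (66985238 to 67008877) and Fundc1 on chromosome X (17519967 to 17572329). Some share ground with other annotated genes. Dnase2b overlaps Uox, Fyco1 contains Cxcr6 and overlaps the long non-coding RNA Gm51700, Pink1 contains Mir7019 and Bnip3 contains the pseudogene Gm18258. The strand setting of the counting is not given in the sources used here, so reads of such neighbours cannot be told apart. Uox had at most 97 counts and Cxcr6 at most 13 counts in any library.

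Promoter windows from RefSeq (GRCm38.p6), which run from 250 bases before the transcription start to 50 bases after it, were at hand for 6 of the 7 genes (not for Bnip3l). The 3 below are shown because Dnase2b had the widest difference between the tissues, Bnip3 is known as a target of hypoxia-inducible factors, and the Fyco1 window holds a repeat. The Fyco1 window is 1 of 2 listed for that gene. The Dnase2b window lies inside the annotated gene, which reaches to 146617060, so it is not at the outermost annotated start. All lie on the minus strand, at chr3:146615549-146615848 for Dnase2b, chr7:138909457-138909756 for Bnip3 and chr9:123851850-123852149 for Fyco1, and are written 5′ to 3′ with matches to the motifs named after them in capitals.
Dnase2b: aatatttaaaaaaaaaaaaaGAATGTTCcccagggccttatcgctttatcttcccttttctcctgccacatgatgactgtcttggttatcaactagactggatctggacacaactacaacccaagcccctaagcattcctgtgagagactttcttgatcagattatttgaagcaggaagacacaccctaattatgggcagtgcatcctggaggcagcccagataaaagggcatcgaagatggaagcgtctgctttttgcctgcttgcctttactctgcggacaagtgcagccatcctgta
Bnip3: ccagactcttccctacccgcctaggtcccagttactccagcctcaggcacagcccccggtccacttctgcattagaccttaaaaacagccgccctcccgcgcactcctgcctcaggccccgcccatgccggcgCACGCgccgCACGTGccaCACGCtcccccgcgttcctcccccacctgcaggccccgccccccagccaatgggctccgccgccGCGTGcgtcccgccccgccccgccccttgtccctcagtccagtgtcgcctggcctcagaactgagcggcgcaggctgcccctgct
Fyco1: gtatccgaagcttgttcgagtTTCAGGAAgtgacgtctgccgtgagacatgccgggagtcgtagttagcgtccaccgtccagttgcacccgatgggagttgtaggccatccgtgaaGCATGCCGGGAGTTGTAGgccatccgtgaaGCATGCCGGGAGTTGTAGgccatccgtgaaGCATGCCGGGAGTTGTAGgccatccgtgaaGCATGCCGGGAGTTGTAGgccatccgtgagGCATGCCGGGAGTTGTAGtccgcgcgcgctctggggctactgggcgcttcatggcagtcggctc

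Each motif was searched on both strands. The heat shock element GAANNTTC, bound by factors such as HSF4, has 1 match in the Dnase2b window, from 230 to 223 bases before the start, and 7.86% of 32851 windows in the RefSeq table hold it. Its outward form TTCNNGAA, held by 8.52% of windows, has no match there but 1 in the Fyco1 window shown, from 229 to 222 bases before the start. The other Fyco1 window holds 1 match to GAANNTTC. The hypoxia response core ACGTG has 2 matches in the Bnip3 window, which overlap as a palindrome, and its second form GCGTG has 3 matches there. GCGTG also has 2 matches in the other Fyco1 window, 1 in the Pink1 window and 1 in the Ulk1 window. Of all windows, 19.6% hold ACGTG and 32.4% hold GCGTG. The Fyco1 window holds 5 copies of GCATGCCGGGAGTTGTAG, which match a motif associated with the factor ZNF143 on the opposite strand, at starts 134, 104, 74, 44 and 14 bases before the transcription start. That motif, searched with 3 of its bases left free, was chosen after the sequence was seen. It occurs in 38 windows (0.116%), and the Fyco1 window is the 1 window with 5 or more copies. A match describes letters only and is no evidence of binding.

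Library totals ran from 19.3 to 46.6 M counts. The LEGSKO+BSO fiber libraries were the deepest, at 39.0 to 46.6 M counts, against 22.4 to 30.0 M counts in the other fibers. Depth and condition thus cannot be told apart there, and the part of depth in the differences was not tested. In composition, 1 library stood apart. Crystallin genes took 50.1% of the counts in WT fibers 1, against 27.6% to 29.6% in the other WT fibers. The markers separated the tissues in part. The summed level of 10 lens fiber markers was 77950 to 90336 CPM (counts scaled to a common library total) in fibers and 13666 to 17721 CPM in epithelia, so epithelial libraries also held fiber transcripts. Foxe3, a transcription factor of lens epithelium, was low in fibers, at 1.8 to 20.5 scaled CPM, and ran from 127 to 365 scaled CPM in epithelia. In scaled CPM the sum of all 8 lens epithelium markers was much closer, at 2460 to 2955 in fibers and 3048 to 3452 in epithelia. On library totals that sum was 1305 to 2087 CPM in fibers and 4462 to 5099 CPM in epithelia. Its most abundant gene in fibers, Sfrp1, was higher there than in epithelia (2184 to 2730 against 556 to 888 scaled CPM). The others of the list, Foxe3, Pdgfra, Cdh1, Pax6, Mab21l1, Gja1 and Npnt, were lower in every fiber library than in any epithelial library in scaled CPM. Scaled CPM are CPM after TMM scaling (trimmed mean of M-values) over all 24 libraries, which is meant to correct for a few genes taking a large share of the reads. Gclc was counted over the whole gene, so its level (98.2 to 120.0 scaled CPM in LEGSKO fibers and 104 to 199 scaled CPM in WT fibers) does not test whether part of it was deleted.

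Comparisons of the tissues depended on the scaling, and the cause of that was not tested. TMM factors were 0.442 to 0.75 in fibers and 1.417 to 1.536 in epithelia, and the median gene differed by -0.09 on the log2 scale in WT fibers against WT epithelia with TMM, but by -1.25 when libraries were scaled by their totals only. Directions between tissues are therefore given under both scalings for the 7 genes and the lists, and in scaled CPM only for single marker genes. With TMM, 6 of the 7 genes were higher in fibers and 1, Ulk1, was lower, and with library totals only 2 were higher and 3 lower in WT. These counts were the same in LEGSKO under both scalings, and in LEGSKO+BSO they were 6 higher and 1 lower with TMM, and 3 higher and 3 lower with totals. Calls are edgeR quasi-likelihood tests with a Benjamini-Hochberg adjusted p below 0.05. Of all genes tested with TMM, 37.0% were called higher and 39.4% lower in WT fibers. The shares were 36.8% higher and 39.0% lower in LEGSKO, and 38.1% higher and 40.8% lower in LEGSKO+BSO. With library totals only, 1982 of all 15560 genes tested were called higher and 11462 lower in WT fibers. The median log2 difference of the 7 genes was 1.05 in LEGSKO+BSO, 1.22 in LEGSKO and 1.27 in WT with TMM, beside -0.09, -0.08 and -0.09 for all genes. The share of all genes whose fiber and epithelial libraries do not overlap was not counted. In bulk libraries, a change in the share of cells and a change of RNA per cell cannot be told apart.

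**Figure D1:**
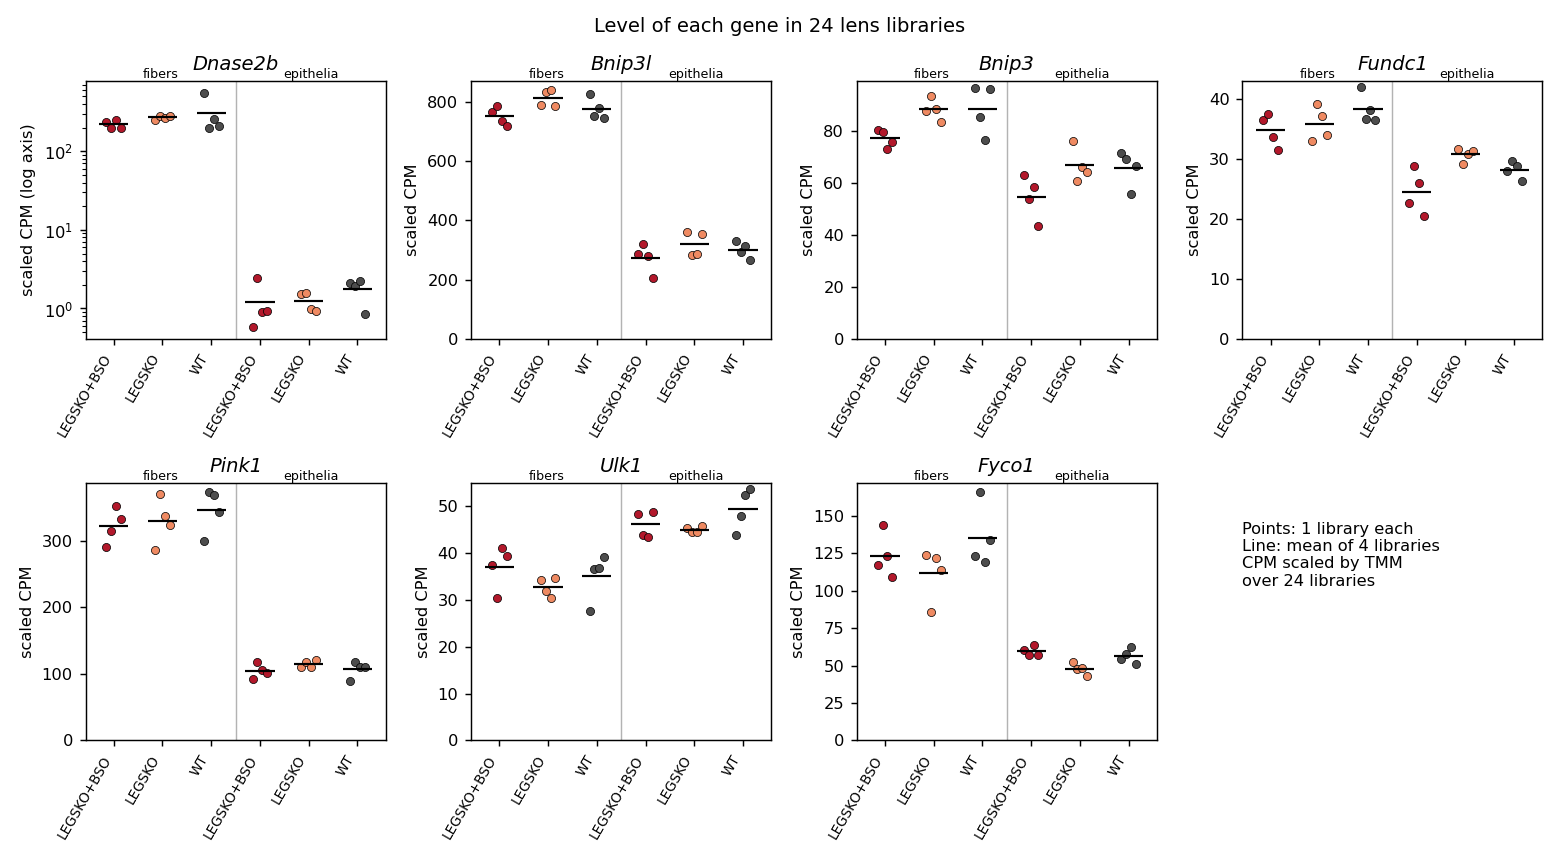
Level of each of the 7 genes in every library, in scaled CPM (log axis for Dnase2b, linear from 0 for the others), fibers left and epithelia right. Points are libraries and lines are means of 4; in Dnase2b the WT fibers 1 library lies at 554 scaled CPM, above the other fiber libraries.

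Dnase2b, the fiber DNase, had the widest difference. Its levels in fibers were 235, 200, 250 and 197 scaled CPM in LEGSKO+BSO, 250, 284, 267 and 282 scaled CPM in LEGSKO, and 554, 199, 255 and 210.0 scaled CPM in WT. In epithelia they were 0.582, 2.42, 0.911 and 0.941 scaled CPM in LEGSKO+BSO, 1.52, 1.57, 0.993 and 0.94 scaled CPM in LEGSKO, and 2.08, 1.91, 2.25 and 0.847 scaled CPM in WT. No fiber library came near any epithelial library, and WT fibers 1 was the highest of all. The fitted log2 difference, fibers over epithelia, was 7.57 ± 0.36 (SE) in LEGSKO+BSO, 7.76 ± 0.37 in LEGSKO and 7.43 ± 0.36 in WT, which is 190-fold, 217-fold and 172-fold. With library totals only it was still higher in fibers, by 6.50, 6.65 and 6.13 on the log2 scale in the same order of conditions, and without WT fibers 1 the TMM value in WT was 6.95 ± 0.24, or 124-fold (edgeR quasi-likelihood test, adjusted p = 5.188e-18). The epithelial level rested on 23 to 78 counts a library, in libraries that also held fiber transcripts. Mip, the fiber water channel, was at 18020 to 33981 scaled CPM in fibers and 403 to 1574 scaled CPM in epithelia, and its part in the epithelial Dnase2b counts was not tested.

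The related acid DNase Dnase2a, which acts in lysosomes of most cells, ran the other way and was singled out after its values were seen. It was at 3.31 to 5.73 scaled CPM in fibers and 6.6 to 9.52 scaled CPM in epithelia. The log2 difference was -1.08 ± 0.14 in LEGSKO+BSO, -0.98 ± 0.15 in LEGSKO and -0.73 ± 0.15 in WT with TMM, and it was also lower in fibers with library totals only (-2.14, -2.09 and -1.92). Within a library, where no scaling enters, there were 44.4 to 96 Dnase2b counts per Dnase2a count in WT fibers and 0.0904 to 0.324 in WT epithelia.

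Bnip3l, the mitophagy receptor that also clears mitochondria from red cell precursors, was the most abundant of the 7 per kilobase of exon in all 6 groups. It had 766, 787, 735 and 719 scaled CPM in LEGSKO+BSO fibers, 789, 835, 840.0 and 788 scaled CPM in LEGSKO fibers, and 828, 752, 779 and 745 scaled CPM in WT fibers. In epithelia it had 286, 319, 279 and 207 scaled CPM in LEGSKO+BSO, 361, 282, 285 and 355 scaled CPM in LEGSKO, and 331, 293, 313 and 266 scaled CPM in WT. Every fiber library was above every epithelial library on this scale. The log2 difference was 1.46 ± 0.11 in LEGSKO+BSO, 1.34 ± 0.11 in LEGSKO and 1.37 ± 0.11 in WT with TMM, but with library totals only it was 0.40, 0.24 and 0.19, and only the LEGSKO+BSO value was then called.

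Bnip3, its close relative, was less abundant and closer between the tissues. It had 80.4, 79.7, 72.9 and 75.7 scaled CPM in LEGSKO+BSO fibers, 87.7, 93.6, 88.3 and 83.6 scaled CPM in LEGSKO fibers, and 96.6, 85.4, 76.4 and 96.0 scaled CPM in WT fibers. The epithelial libraries had 62.9, 53.9, 58.5 and 43.6 scaled CPM in LEGSKO+BSO, 76.0, 60.9, 66.0 and 64.2 scaled CPM in LEGSKO, and 71.7, 69.2, 55.9 and 66.7 scaled CPM in WT. Fibers and epithelia did not overlap within a condition on this scale. With TMM, Bnip3 was higher in fibers, by 0.50 ± 0.10, 0.40 ± 0.10 and 0.43 ± 0.10 on the log2 scale in LEGSKO+BSO, LEGSKO and WT, but with library totals only it was called lower, at -0.57, -0.70 and -0.75.

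Fundc1, the receptor that responds to low oxygen through its phosphorylation state, behaved in the same way under the choice of scaling. It had 36.6, 37.5, 33.7 and 31.5 scaled CPM in LEGSKO+BSO fibers, 33.1, 39.3, 37.3 and 34.0 scaled CPM in LEGSKO fibers, and 42.0, 36.8, 38.2 and 36.5 scaled CPM in WT fibers. In epithelia it had 22.7, 28.8, 26 and 20.5 scaled CPM in LEGSKO+BSO, 31.7, 29.2, 30.9 and 31.4 scaled CPM in LEGSKO, and 28.0, 29.7, 28.8 and 26.4 scaled CPM in WT. The gap was narrowest in LEGSKO, where the lowest fiber library (33.1) lay just above the highest epithelial library (31.7). With TMM it was higher in fibers by 0.51 ± 0.09 in LEGSKO+BSO, 0.22 ± 0.09 in LEGSKO and 0.44 ± 0.09 in WT on the log2 scale, and with library totals only it was lower, at -0.55, -0.89 and -0.74. The LEGSKO call (edgeR adjusted p = 0.0234) was lost with the size factors of DESeq2 in edgeR (adjusted p = 0.0845), with DESeq2 itself (0.101), and without LEGSKO epithelia 2, LEGSKO fibers 2 or LEGSKO fibers 3.

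Pink1, the mitochondrial damage sensor, was higher in fibers under both scalings. Its fiber levels were 291, 315, 352 and 333 scaled CPM in LEGSKO+BSO, 286, 370.0, 337 and 323 scaled CPM in LEGSKO, and 299, 373, 369 and 343 scaled CPM in WT. Its epithelial levels were 92.7, 118, 106 and 102 scaled CPM in LEGSKO+BSO, 111, 118, 110.0 and 121 scaled CPM in LEGSKO, and 89.4, 118, 111 and 111 scaled CPM in WT. The lowest fiber library (286) was far above the highest epithelial library (121). The log2 difference was 1.63 ± 0.10 in LEGSKO+BSO, 1.52 ± 0.10 in LEGSKO and 1.69 ± 0.10 in WT with TMM, and 0.57, 0.40 and 0.54 with library totals only, all called higher.

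Ulk1, the autophagy-starting kinase, was the 1 gene lower in fibers under both scalings. It had 37.5, 30.4, 41.0 and 39.4 scaled CPM in LEGSKO+BSO fibers, 34.2, 31.9, 30.3 and 34.6 scaled CPM in LEGSKO fibers, and 27.6, 36.5, 36.9 and 39.2 scaled CPM in WT fibers. In epithelia it had 48.4, 43.8, 43.5 and 48.8 scaled CPM in LEGSKO+BSO, 45.4, 44.4, 44.5 and 45.7 scaled CPM in LEGSKO, and 43.8, 47.8, 52.4 and 53.7 scaled CPM in WT. Fibers and epithelia did not overlap in any condition on this scale, and LEGSKO epithelia were the tightest group. The log2 difference was -0.31 ± 0.09 in LEGSKO+BSO, -0.46 ± 0.10 in LEGSKO and -0.49 ± 0.09 in WT with TMM, and -1.38, -1.56 and -1.63 with library totals only.

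Fyco1, the transport adaptor, had 117, 144, 123 and 109 scaled CPM in LEGSKO+BSO fibers, 124, 86.1, 122 and 114 scaled CPM in LEGSKO fibers, and 123, 166, 119 and 134 scaled CPM in WT fibers. In epithelia it had 60.6, 56.9, 63.4 and 57.1 scaled CPM in LEGSKO+BSO, 52.2, 47.9, 48.5 and 43.3 scaled CPM in LEGSKO, and 54.1, 57.9, 62.2 and 51.0 scaled CPM in WT. All fiber libraries were above all epithelial libraries on this scale, with LEGSKO fibers 2 the lowest of them. With TMM it was higher in fibers by 1.05 ± 0.11 in LEGSKO+BSO, 1.22 ± 0.11 in LEGSKO and 1.27 ± 0.11 in WT on the log2 scale, whereas with library totals only the values were -0.02, 0.12 and 0.12 and none was called.

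**Figure D2:**
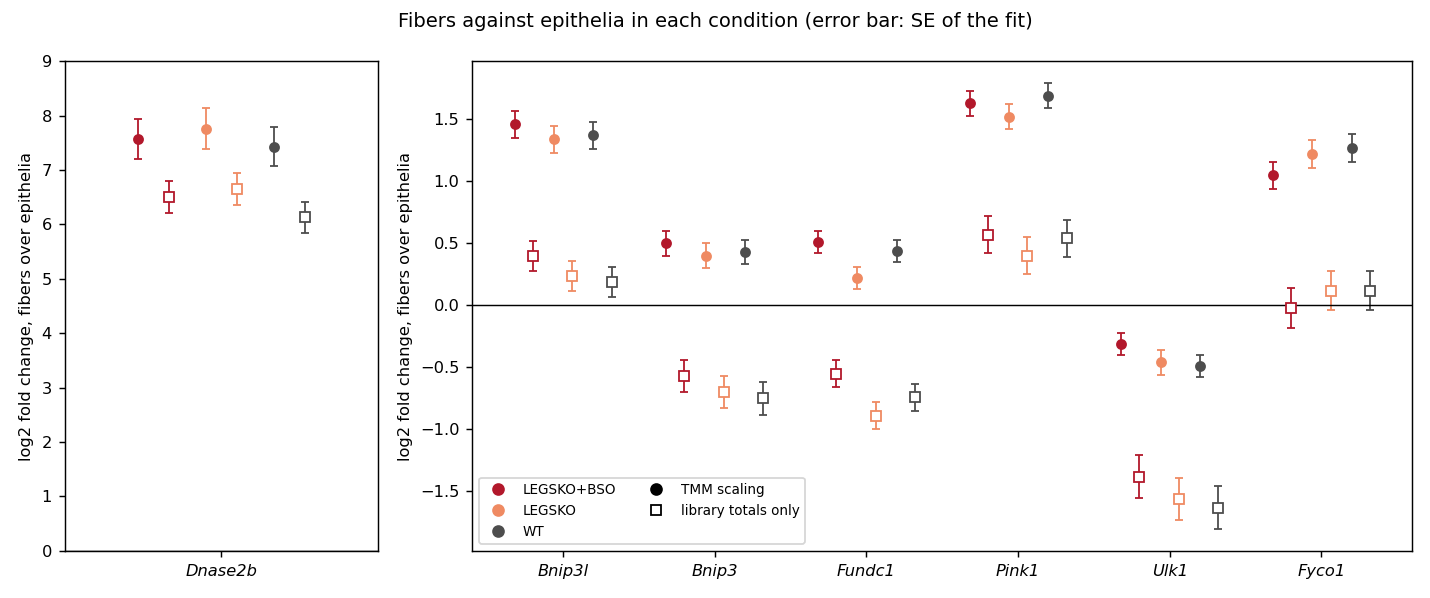
Log2 fold change, fibers over epithelia, for each gene in each condition (colour), with TMM (filled circles) and with library totals only (open squares); error bars are the SE of the fit. Dnase2b and Pink1 stay above 0 and Ulk1 below 0 under both scalings, while Bnip3 and Fundc1 cross 0.

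Ratios of 2 genes within a library do not depend on the scaling. The pairs were chosen after the values were seen. There were 9.49 to 10.1 Bnip3l counts per Bnip3 count in LEGSKO+BSO fibers and 4.55 to 5.91 in LEGSKO+BSO epithelia, 8.92 to 9.5 in LEGSKO fibers and 4.31 to 5.53 in LEGSKO epithelia, and 7.76 to 10.2 in WT fibers and 4 to 5.59 in WT epithelia. Bnip3l thus differed from Bnip3 by a further 1.96-fold, 1.92-fold and 1.92-fold between tissues in the 3 conditions. Pink1 over Fundc1 was 2.16-fold, 2.45-fold and 2.37-fold higher in fibers in LEGSKO+BSO, LEGSKO and WT. Dnase2b over Dnase2a was 436-fold, 431-fold and 272-fold higher in fibers. For each of the 3 pairs and in each of the 3 conditions all 4 fiber libraries exceeded all 4 epithelial libraries. No test was made on pairs chosen in this way.

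**Figure D3:**
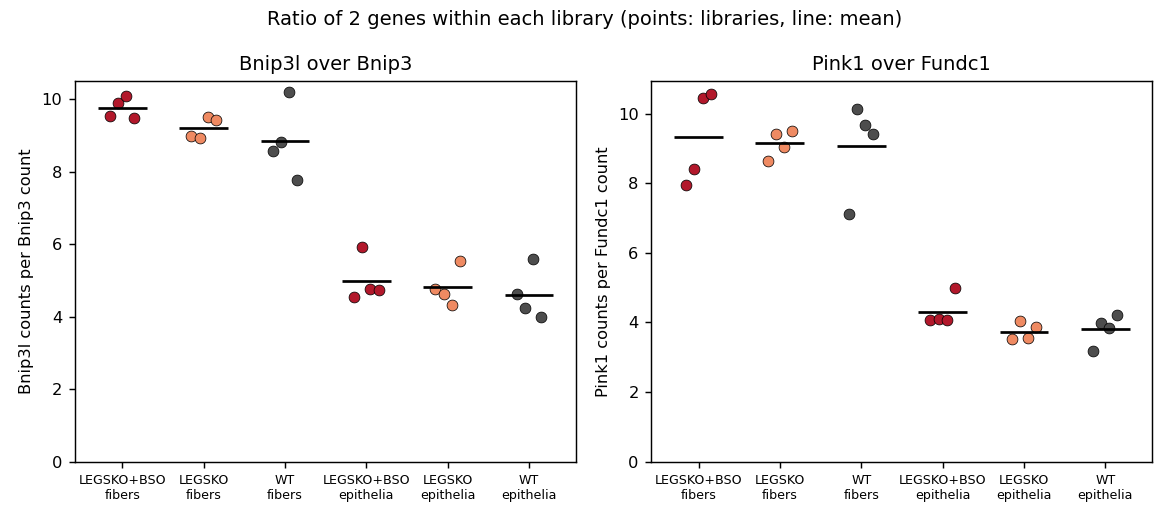
Bnip3l counts per Bnip3 count (left) and Pink1 counts per Fundc1 count (right) in every library, fibers before epithelia; points are libraries and lines are means of 4. Each fiber group lies above the epithelial group of its condition, 7.76 to 10.2 against 4 to 5.59 for Bnip3l over Bnip3 in WT.

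Levels of different genes were compared per kilobase of exon. In fibers the order was Bnip3l (195 ± 8.03 scaled CPM per kb in LEGSKO+BSO, 211 ± 7.38 in LEGSKO and 201 ± 9.8 in WT, SD, n = 4), Pink1 (121 ± 9.74, 123 ± 12.9 and 129 ± 12.7), Dnase2b (79.1 ± 9.27, 97.0 ± 5.67 and 109 ± 60.1) and Bnip3 (34.1 ± 1.55, 39.0 ± 1.81 and 39.1 ± 4.25). Fundc1 (14.8 ± 1.16, 15.3 ± 1.23 and 16.3 ± 1.07), Fyco1 (13.9 ± 1.68, 12.6 ± 1.98 and 15.3 ± 2.43) and Ulk1 (5.72 ± 0.722, 5.05 ± 0.312 and 5.4 ± 0.79) followed. The mean ± SD of Fundc1 and Fyco1 overlapped in all 3 fiber groups, and those of Pink1 and Dnase2b did in WT fibers. In WT epithelia the order was Bnip3l (77.9 ± 7.15 scaled CPM per kb), Pink1 (40.2 ± 4.65), Bnip3 (29.1 ± 3.07), Fundc1 (12 ± 0.6), Ulk1 (7.62 ± 0.701), Fyco1 (6.35 ± 0.541) and Dnase2b (0.634 ± 0.226). LEGSKO+BSO and LEGSKO epithelia kept that order, and Ulk1 (7.11 ± 0.444) and Fyco1 (6.71 ± 0.353) overlapped in LEGSKO+BSO. Dnase2b was above Bnip3 in fibers and last in epithelia.

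The series asked how loss of glutathione changes each tissue. None of the 7 genes was called by edgeR in any of the 6 comparisons within a tissue, and DESeq2 called 2, both in LEGSKO+BSO against LEGSKO epithelia. DESeq2 also called more of all genes in that comparison than edgeR did, as counted in the closing section. The shares that follow are those of edgeR. In fibers, 0 of 7 were called where 5.52% of all genes tested were called for LEGSKO+BSO against WT, 1.64% for LEGSKO against WT and 0.0298% for LEGSKO+BSO against LEGSKO. In epithelia, 0 of 7 were called where the shares of all genes were 1.17% for LEGSKO+BSO against WT, 0.842% for LEGSKO against WT and 0.722% for LEGSKO+BSO against LEGSKO. At an unadjusted p below 0.05 the numbers of the 7 were 1, 1 and 1 in fibers and 2, 2 and 3 in epithelia, in that order. Both comparisons with WT share the WT libraries.

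The intervals show how large a change could have been missed. In LEGSKO+BSO fibers against WT fibers the log2 difference, with its 95% interval, was -0.05 (-0.18 to 0.09) for Bnip3l, -0.20 (-0.36 to -0.03) for Bnip3, -0.14 (-0.30 to 0.03) for Fundc1 and -0.10 (-0.29 to 0.09) for Pink1. It was 0.08 (-0.15 to 0.31) for Ulk1 and -0.14 (-0.41 to 0.13) for Fyco1. None of these 6 intervals reached past -0.41 or 0.31 on the TMM scale. Dnase2b was at -0.46 ± 0.24 (SE), with an interval of -0.98 to 0.05 and an adjusted p of 0.287 (edgeR). Without WT fibers 1 its difference was -0.01 ± 0.09 (adjusted p = 0.982), so that 1 library set the value. For LEGSKO fibers against WT fibers Dnase2b was at -0.17 ± 0.24 with WT fibers 1 and at 0.28 ± 0.09 without it (edgeR adjusted p = 0.105), which turned the direction.

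In LEGSKO fibers against WT fibers the other 6 genes lay between -0.28 (Fyco1) and 0.07 (Bnip3l) on the log2 scale, with edgeR adjusted p of 0.316 or more. In scaled CPM, LEGSKO+BSO fibers and LEGSKO fibers did not overlap for Dnase2b, Bnip3l and Bnip3, each lower in every LEGSKO+BSO library. For Dnase2b the groups nearly touched, since the highest LEGSKO+BSO library and the lowest LEGSKO library both round to 250 scaled CPM. The groups of Bnip3l did as well, with the highest LEGSKO+BSO library at 787 and the lowest LEGSKO library at 788 scaled CPM. The share of all genes that separate in this way was not counted. On library totals the separation held for Bnip3 but not for Dnase2b (141 to 178 against 177 to 198 CPM) or Bnip3l (524 to 552 against 520 to 577 CPM). Their log2 differences were small, at -0.29 ± 0.24, -0.11 ± 0.06 and -0.19 ± 0.08, and their edgeR adjusted p were 0.706, 0.58 and 0.397.

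Epithelia gave the 2 differences closest to a call, both for LEGSKO+BSO against LEGSKO. Fyco1 was at 56.9 to 63.4 scaled CPM in LEGSKO+BSO epithelia and 43.3 to 52.2 scaled CPM in LEGSKO epithelia, with no overlap, and WT epithelia lay across both at 51.0 to 62.2 scaled CPM. The log2 difference was 0.33 ± 0.08 (edgeR adjusted p = 0.0582). DESeq2 called it (0.34, adjusted p = 0.00302), as did edgeR on these 2 groups alone (adjusted p = 0.0491). For Fundc1, levels were 20.5 to 28.8 scaled CPM in LEGSKO+BSO epithelia and 29.2 to 31.7 scaled CPM in LEGSKO epithelia, again without overlap. How many of all genes separate in this way was not counted, and both genes were picked as closest to a call. The log2 difference of Fundc1 was -0.31 ± 0.09 (edgeR adjusted p = 0.105), and DESeq2 called it (-0.31, adjusted p = 0.0366). Both were also called by edgeR without LEGSKO+BSO epithelia 2 (adjusted p = 0.0411 for Fyco1 and 0.0326 for Fundc1). Fiber markers summed to 13897 to 17072 CPM in LEGSKO+BSO epithelia and 13666 to 17106 CPM in LEGSKO epithelia. Foxe3 was at 301 to 365 scaled CPM in LEGSKO+BSO epithelia and 127 to 207 scaled CPM in LEGSKO epithelia, and its part in these differences was not tested.

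The remaining epithelial differences did not pass in any setting tried. Against WT, Bnip3 was at -0.26 ± 0.11 in LEGSKO+BSO epithelia and 0.00 ± 0.11 in LEGSKO epithelia on the log2 scale. Fyco1 was at 0.08 ± 0.08 in LEGSKO+BSO epithelia and -0.25 ± 0.08 in LEGSKO epithelia (edgeR adjusted p = 0.139). Dnase2b had the widest intervals, -1.42 to 0.30 in LEGSKO+BSO and -1.37 to 0.35 in LEGSKO. Retinal marker genes summed to 19 to 133 CPM of library total in LEGSKO+BSO epithelia, 24.7 to 332 CPM in LEGSKO epithelia and 72.1 to 412 CPM in WT epithelia. Corneal and conjunctival markers summed to 184 to 206 CPM in LEGSKO+BSO epithelia, 205 to 230 CPM in LEGSKO epithelia and 99.4 to 149 CPM in WT epithelia, and both LEGSKO groups lay above WT without overlap. Krt19 and Krt15 made up most of that sum, while Krt12, Krt5 and Krt14 were at most 0.538 scaled CPM. In fibers, immune markers summed to 3.56 to 4.87 CPM in LEGSKO+BSO and at most 1.3 CPM in the other groups. Muscle and stroma markers summed to 665 to 773 CPM in LEGSKO+BSO fibers, 666 to 712 CPM in LEGSKO fibers and 373 to 564 CPM in WT fibers, and WT again lay below both. Nearly all of that sum was Acta2, and Myl1, Lum, Kera and Dcn were at 0 in every fiber library. The part of these markers in the differences between conditions, also in those of the lists below, was not tested.

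**Figure D4:**
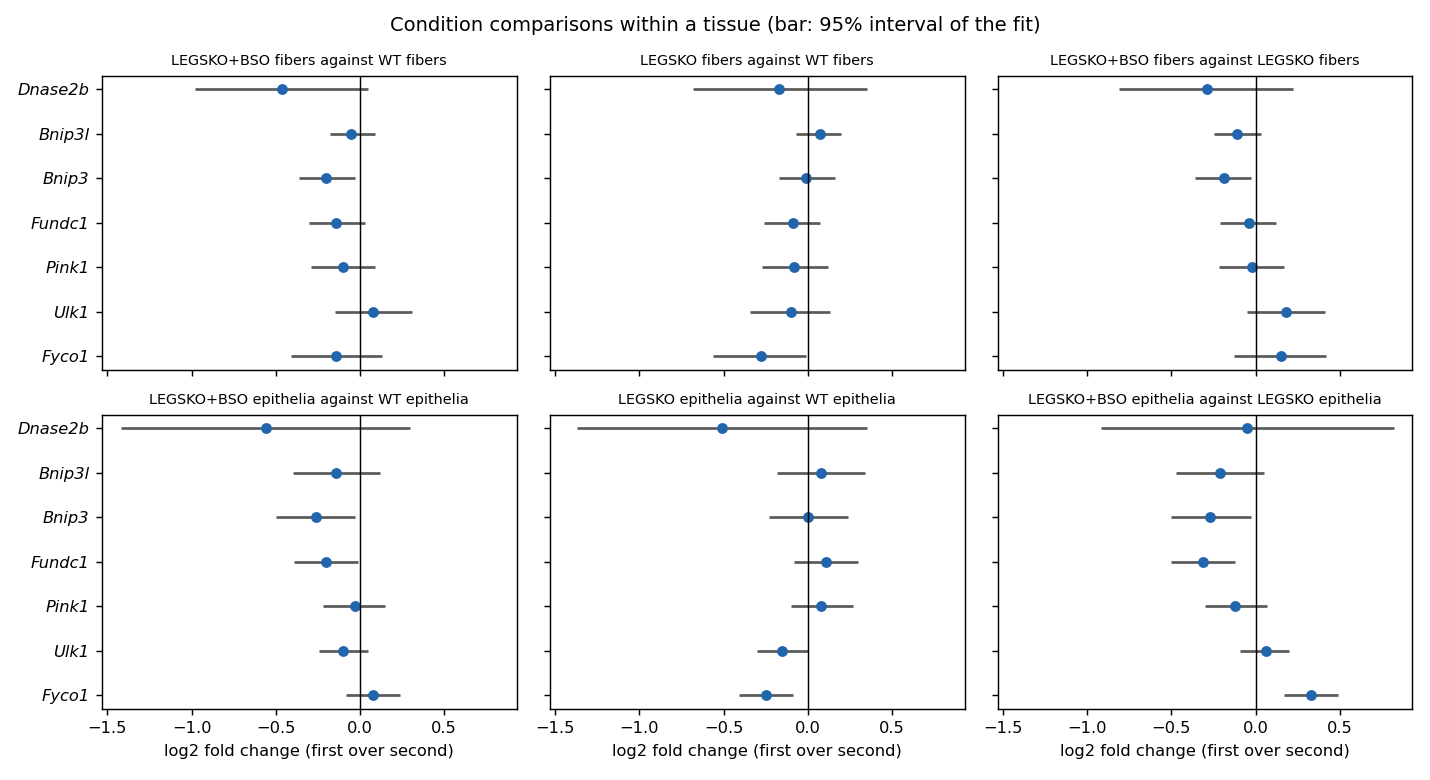
Log2 fold change between conditions within fibers (top) and epithelia (bottom), first-named group over the second; points are fitted values and bars 95% intervals. Fyco1 (0.33) and Fundc1 (-0.31) in LEGSKO+BSO against LEGSKO epithelia lie farthest from 0 relative to their intervals, and Dnase2b has the widest bars.

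Whether a condition acted differently in fibers and epithelia was tested as an interaction over the 24 libraries. None of the 7 genes was called by edgeR, where 0.276% of all genes were called for LEGSKO+BSO against WT, 0.103% for LEGSKO against WT and 0.0321% for LEGSKO+BSO against LEGSKO. The count at an unadjusted p below 0.05 was 0, 0 and 1 of 7. That 1 gene was Fundc1, whose LEGSKO+BSO against LEGSKO difference was 0.29 ± 0.12 higher in fibers than in epithelia on the log2 scale (edgeR adjusted p = 0.398). For Dnase2b the 3 interactions had 95% intervals that together ran from -1.26 to 1.36. DESeq2 called none of the 7 either.

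The machinery around these genes was read from 5 lists. In WT fibers, 37.0% of all genes tested were called higher and 39.4% lower with TMM. With library totals only, 1982 of 15560 genes were higher and 11462 lower. Of 33 other genes of mitophagy and reticulophagy, 26 were higher and 5 lower in WT fibers with TMM, but 5 higher and 21 lower with library totals only. The counts were 25 higher and 4 lower in LEGSKO+BSO and 24 and 6 in LEGSKO with TMM, against 7 and 21 and 4 and 22 with totals. The median log2 difference of the list in WT was 0.55 with TMM and -0.63 with totals, beside -0.09 and -1.25 for all genes. Members higher in WT fibers under both scalings included Park7 (a redox-sensing protein; 6.35-fold with TMM, log2 1.47 with totals) and Fis1 (a mitochondrial fission adaptor; 5.56-fold, log2 1.29 with totals). Ppargc1a, a driver of mitochondrial biogenesis, was lower under both, at 0.839 ± 0.347 scaled CPM in WT fibers and 6.33 ± 1.42 scaled CPM in WT epithelia.

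The counts that follow stand beside 37.0% of all genes higher and 39.4% lower in WT fibers with TMM. With library totals only, 1982 of all 15560 genes were higher and 11462 lower. Of 39 core autophagy genes, 24 were higher and 9 lower in WT fibers with TMM, but 4 higher and 28 lower with library totals only. Those higher under both scalings included Atg3, the enzyme that couples LC3 proteins to lipid (279 ± 46.7 scaled CPM in WT fibers and 23.6 ± 1.78 in WT epithelia, 11.8-fold with TMM and log2 2.36 with totals). The LC3-family genes Gabarapl1 (10.9-fold, log2 2.21 with totals) and Gabarap (6.13-fold, log2 1.46 with totals), whose products bind the BNIP3-type receptors, were also higher under both. Mtor, the kinase that restrains ULK1, was lower under both, at 81.4 ± 8.82 scaled CPM in WT fibers and 455 ± 52.1 in WT epithelia (SD, n = 4). Of 22 genes of lysosomal fusion and transport, 13 were higher and 4 lower in WT fibers with TMM, but 0 higher and 20 lower with library totals only. The cathepsins Ctsl (11-fold lower with TMM, log2 -4.61 with totals) and Ctsb (2.95-fold, log2 -2.73) were lower under both. Vamp8 and Vps16, which act in autophagosome and lysosome fusion, were higher with TMM (2.45-fold and 2.35-fold) and not called with totals (log2 0.13 and 0.05).

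Of 30 tested genes of nuclear breakdown (of 32 listed), 10 were higher and 12 lower in WT fibers with TMM, and 8 higher and 19 lower with library totals only. With TMM this was near the shares of all genes tested, 37.0% higher and 39.4% lower. Birc7 (129-fold with TMM, log2 5.71 with totals) and Lgsn (96-fold, log2 5.37) were higher in fibers under both, and both are also fiber markers. A place in this list is no evidence that either acts in nuclear breakdown. Hsf4, the heat shock factor of fibers, which mouse studies place upstream of Dnase2b, was higher by 4.78 ± 0.20 in LEGSKO+BSO, 5.05 ± 0.20 in LEGSKO and 4.57 ± 0.19 in WT on the log2 scale with TMM, and by 3.72, 3.95 and 3.36 with totals. Cdk1 and Ccnb1, mitotic genes whose kinase also takes lamins apart, were lower in fibers under both, at 0.0898 and 0.119 scaled CPM in WT fibers and 2.73 and 2.86 scaled CPM in WT epithelia. Of 24 tested hypoxia-inducible factor genes and targets (of 25 listed), which include no member described above, 4 were higher and 17 lower in WT fibers with TMM, and 1 higher and 22 lower with totals. Hif1a itself was lower in fibers under both, at 65.8 to 89.4 scaled CPM in WT fibers and 912 to 1029 scaled CPM in WT epithelia, as were Ldha, Slc16a3 and Car9. Ndrg1 was higher under both, at 2828 ± 277 scaled CPM in WT fibers and 123 ± 29.5 in WT epithelia (22.9-fold with TMM, log2 3.34 with totals).

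**Figure D5:**
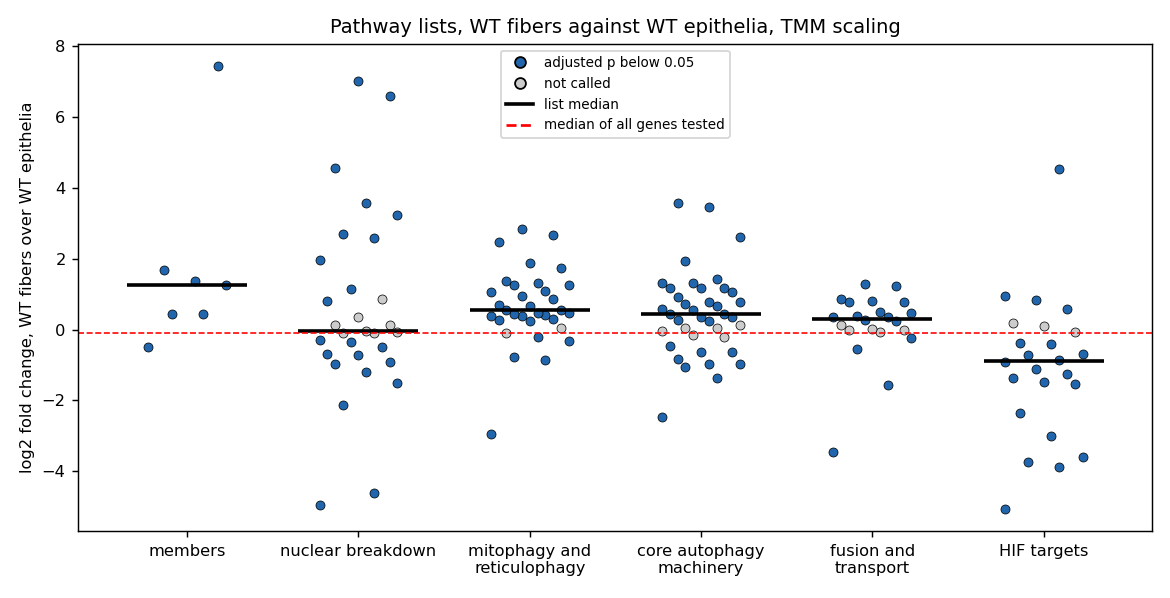
Log2 fold change, WT fibers over WT epithelia with TMM, for the 7 genes (members) and the tested genes of the 5 lists; each point is a gene, blue where called by edgeR, black lines are list medians and the dashed line is the median of all genes tested (-0.09). The mitophagy list has a median of 0.55 and the hypoxia list -0.89; with library totals only these medians are -0.63 and -2.06.

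Between conditions the number of list genes called depended on the tool. In fibers edgeR called 12 for LEGSKO+BSO against WT, 2 for LEGSKO against WT and 0 for LEGSKO+BSO against LEGSKO, where DESeq2 called 18, 7 and 0. In epithelia edgeR called 3, 1 and 1 in the same order, where DESeq2 called 6, 6 and 11. Of all genes tested, edgeR called 5.52%, 1.64% and 0.0298% in fibers and 1.17%, 0.842% and 0.722% in epithelia, in that order. DESeq2 also called more of all genes in each comparison, as counted in the closing section. The genes named are edgeR calls. Those 12 in LEGSKO+BSO fibers against WT fibers were 1 of 28 in nuclear breakdown, 3 of 33 in mitophagy, 2 of 39 in core autophagy, 1 of 22 in fusion and 5 of 24 among hypoxia genes, beside 5.52% of all genes. Optn, a mitophagy adaptor that reads ubiquitin marks, fell to 58.2 ± 1.63 scaled CPM in LEGSKO+BSO fibers, against 80.7 ± 3.98 in WT fibers (log2 -0.47 ± 0.06, edgeR adjusted p = 0.000913), and was also lower in LEGSKO fibers, at 66.9 ± 3.69 scaled CPM (adjusted p = 0.0439). The reticulophagy receptor gene Ccpg1 (log2 -0.24), the cathepsin gene Ctsd (-0.30) and the hypoxia genes Vegfa (-0.40), Pdk1 (-0.30), P4ha1 (-0.42) and P4ha2 (-0.28) also fell. Hk2, a hexokinase that docks on mitochondria, rose to 88.2 ± 5.37 scaled CPM in LEGSKO+BSO fibers, against 63.6 ± 4.8 in WT fibers (log2 0.47 ± 0.07, edgeR adjusted p = 0.00253). Cdk5 (log2 0.29), Atg4d (0.43) and Map1lc3a (0.67) rose as well.

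These fiber calls varied with scaling and with single libraries. With library totals only, Hk2 alone of the 12 was called (log2 0.63, edgeR adjusted p = 0.0374), and Optn was at -0.32 (adjusted p = 0.357). The number of the 12 that lost their call was 1 without WT fibers 1 (Pdk1), 8 without WT fibers 2 or 3 and 4 without WT fibers 4. It was 9 without LEGSKO+BSO fibers 1 or 3, 7 without LEGSKO+BSO fibers 2 and 8 without LEGSKO+BSO fibers 4. Optn and Hk2 kept theirs in each case, with edgeR adjusted p up to 0.00599 and 0.0119. In LEGSKO fibers against WT fibers, Ctsd fell besides Optn (log2 -0.39, edgeR adjusted p = 0.0221), and neither was called with library totals only. Optn also lost its call there without any 1 of 7 of the 8 libraries (all but WT fibers 1), and Ctsd without WT fibers 2 or LEGSKO fibers 3 or 4.

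In the test of a different response of the tissues, edgeR called 1 list gene for LEGSKO+BSO against WT and 0 in the other 2 comparisons. DESeq2 called 7 for LEGSKO+BSO against WT, 1 for LEGSKO against WT and 0 for LEGSKO+BSO against LEGSKO. Of all genes tested, edgeR called 0.276%, 0.103% and 0.0321% in that order, and DESeq2 called more of them in each. The LEGSKO+BSO against WT difference of Optn was lower in fibers than in epithelia by -0.47 ± 0.09 on the log2 scale (edgeR adjusted p = 0.0239). That call was lost with library totals only (adjusted p = 0.521) and without WT epithelia 2 (0.0517), LEGSKO+BSO epithelia 3 (0.0574) or LEGSKO+BSO fibers 4 (0.0503).

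In epithelia, Car9, a carbonic anhydrase induced by hypoxia, rose to 65 ± 17.6 scaled CPM in LEGSKO+BSO, against 24.3 ± 3.94 in WT (log2 1.42 ± 0.22, edgeR adjusted p = 0.00644, and at most 0.0299 without any 1 library). It was 50.3 ± 14.7 scaled CPM in LEGSKO epithelia (log2 1.03 ± 0.22 against WT, adjusted p = 0.0383), a call that was lost (adjusted p up to 0.109) without any 1 of 7 of the 8 libraries, all but WT epithelia 1. Mtor (log2 0.48 ± 0.09, edgeR adjusted p = 0.021) and Atg13, a partner of ULK1 (0.34 ± 0.06, adjusted p = 0.0173), rose in LEGSKO+BSO epithelia against WT epithelia. Both lost their call without WT epithelia 2 or LEGSKO+BSO epithelia 1 or 3, and Mtor also without LEGSKO+BSO epithelia 4, with edgeR adjusted p up to 0.0842. Hif1a fell to 842 ± 25.4 scaled CPM in LEGSKO+BSO epithelia, against 1082 ± 60 in LEGSKO epithelia (edgeR adjusted p = 0.0339). That call was lost (adjusted p up to 0.114) without any 1 of 7 of the 8 libraries, all but LEGSKO+BSO epithelia 2, and with library totals only (adjusted p = 0.0597). The corneal and conjunctival markers given above were higher in both LEGSKO groups than in WT epithelia, as Car9 was, and their part in its difference was not tested.

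The genes most like each of the 7 over the 24 libraries were found among 11071 genes by the root mean square difference of log2 CPM after centring each gene, a description that follows mainly the gap between tissues. For Dnase2b they were Tcp11 (0.339), Birc7 (0.383) and Clic5 (0.491), beside a median of 3.772 over all genes compared. For Bnip3l they were Arpc2 (0.081), Aagab and Cops5, and for Pink1 Dctn2 (0.114), Cdc37 and Utp11. Fyco1 was nearest to Sptan1 (0.127), Itga6 and Atp2c1, Bnip3 to Rnf2 (0.110), Rsl1d1 and Sumo2, Fundc1 to Cdc42 (0.080), Hat1 and Cep20, and Ulk1 to Foxj2 (0.092), Cyp4f13 and Git2. None of the 7 was among the 3 nearest genes of another.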

How the data were processed

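The authors deposited whole-number read counts for 24415 Entrez genes in 24 libraries. The submitters' processing notes list TopHat, bcl2fastq, CASAVA 1.8 and DESeq, and the build mm10 (GRCm38). Which tool counted reads, with which annotation and strand setting, is not given in the sources used here. Symbols came from a RefSeq table of that build (24334 matched; the other 81 held 0.914% of counts). Exon lengths are unions of GENCODE exons. The main test was edgeR 4.0.16 run under R 4.3.3 (TMM, filterByExpr with a minimum count of 10 and total of 15, two-sided quasi-likelihood F tests, Benjamini-Hochberg adjustment over all genes tested, threshold 0.05). Conditions were fitted within a tissue (12 libraries; 15089 genes in epithelia and 13436 in fibers), and tissues and interactions over 24 libraries (15560 genes). All 7 genes passed the filter in each fit. The procedure was tested on simulated data. Alternatives were DESeq2 1.42.0, its size factors in edgeR, no filter, no crystallin genes, only the 2 groups compared, a replicate block, each library left out, and, added after the TMM factors were seen, library totals only. Totals were 19.3 to 46.6 M counts, and Dnase2b in epithelia had 23 to 78 counts a library. No 2 libraries of a group agreed within sampling noise.

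The 7 genes, the lists and the markers were chosen with earlier results of these data known. All 7 genes are named in every comparison. Of the lists, the text names the genes called between conditions (up to 6 a list and comparison; 1 is not reported here by name but is in the counts), and, chosen from the 4 called genes of each list with the largest log2 difference between tissues, some examples; Hsf4 and Hif1a in WT were added after their values were seen.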

Additional observations from a re-analysis of the deposited data

Results flagged for a closer look

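Dnase2b in WT fibers 1 stood far from the other 3 WT fiber libraries, at 554 scaled CPM against 199 to 255 scaled CPM. The gap was 0.842 of the range of the group, above Dixon's critical value for 4 libraries. On library totals it was 245 CPM, in a group that ran from 143 to 245 CPM, and Dixon's rule was applied to scaled CPM only. The TMM factor of WT fibers 1 was 0.442, against 0.702 to 0.737 in the other WT fibers. The same library had the highest crystallin share of the fibers, and the part of that in the value was not tested. It was the only such value among 42 sets (7 genes in 6 groups), of which about 1 in 20 would be set apart by chance.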

How the results depend on the processing

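The calls of the 7 genes between conditions and between tissues stayed on their side of the threshold with no filter, without crystallin genes and with the replicate block (84 of 84 values each). Same-numbered libraries correlated with a median r of -0.04 in epithelia, -0.01 in fibers and 0.04 across tissues, against 0.03, 0.00 and -0.02 for other numbers. Across tissues within a condition, 3 of 12 same-numbered pairs were above 0.1, up to 0.19, where other pairs reached at most 0.10. Whether fibers and epithelia of the same number are paired is thus not settled, and the tests treated them as unpaired. The replicate block gives a number the same effect in all groups and does not model such pairs. The replicate block left 0 members called within tissues and 6 higher and 1 lower between tissues. For LEGSKO+BSO against LEGSKO epithelia, members called were 2 with DESeq2, 1 with only the 2 groups, and 0 to 2 with 1 library left out.

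With library totals only, members higher in fibers were 3, 2 and 2 and members lower 3, 3 and 3 in LEGSKO+BSO, LEGSKO and WT. In that order, the log2 differences that turned were -0.57, -0.70 and -0.75 for Bnip3 and -0.55, -0.89 and -0.74 for Fundc1, besides -0.02 for Fyco1 in LEGSKO+BSO. Uncalled values that turned were, against WT, 0.11 (Bnip3l), 0.03 (Pink1) and 0.02 (Fundc1) in LEGSKO+BSO fibers, 0.03 (Dnase2b) and 0.07 (Bnip3) in LEGSKO fibers and 0.01 (Pink1) in LEGSKO+BSO epithelia. Against LEGSKO fibers they were 0.06 (Pink1) and 0.04 (Fundc1) in LEGSKO+BSO fibers, and for interactions 0.05 (Bnip3l), 0.05 (Bnip3) and 0.002 (Fyco1) for LEGSKO and 0.02 (Pink1) for LEGSKO+BSO. All genes split into 1982 higher and 11462 lower in WT fibers, against 5761 and 6131 with TMM. The cause was not tested.

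With 1 library left out, no called direction turned. Uncalled values whose sign turned had these ranges of log2 difference. Against WT they were -0.07 to 0.05 (Bnip3, LEGSKO epithelia), -0.10 to 0.02 (Pink1, LEGSKO+BSO epithelia), -0.32 to 0.28 (Dnase2b, LEGSKO fibers), -0.07 to 0.04 (Bnip3, LEGSKO fibers) and -0.02 to 0.17 (Ulk1, LEGSKO+BSO fibers). For LEGSKO+BSO against LEGSKO they were -0.60 to 0.19 (Dnase2b, epithelia), -0.08 to 0.03 (Pink1, fibers) and -0.07 to 0.01 (Fundc1, fibers). For interactions of LEGSKO against WT they were -0.08 to 0.03 (Bnip3l), -0.09 to 0.05 (Bnip3), -0.11 to 0.07 (Fyco1) and -0.04 to 0.09 (Ulk1). For those of LEGSKO+BSO against WT they were -0.09 to 0.65 (Dnase2b), -0.02 to 0.18 (Bnip3l), -0.03 to 0.14 (Bnip3), -0.12 to 0.02 (Pink1) and -0.01 to 0.16 (Fundc1), and for those of LEGSKO+BSO against LEGSKO -0.42 to 0.32 (Dnase2b) and -0.001 to 0.17 (Bnip3). Members called higher in LEGSKO fibers were 5 to 6.

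Genes called for LEGSKO+BSO, LEGSKO (each against WT) and LEGSKO+BSO against LEGSKO were 742, 220 and 4 in fibers, with DESeq2 1138, 501 and 81, with 2 groups 417, 85 and 56, with totals 173, 75 and 4, and with the block 143 for LEGSKO and 2 for the last, which had 14 with no filter. In epithelia they were 177, 127 and 109, with DESeq2 565, 447 and 679, with 2 groups 62 for LEGSKO+BSO, and for the last 64 with totals and 46 with the block. Leaving out 1 library gave 285 to 1075, 61 to 591 and 1 to 7 in fibers and 41 to 324, 40 to 183 and 0 to 442 in epithelia. Interactions had 43, 16 and 5, with DESeq2 302, 78 and 61, with totals 13, 4 and 0, with 10 for LEGSKO and 2 for the last with the block, and for the last 2 with DESeq2 size factors and 1 with no filter.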
